A study of Homo sapiens with 6 samples.

Results

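The genes described are the ZNF genes of chromosome 19, which encode zinc finger proteins, in HCT116 cells treated with 5aza and in control HCT116 cells. A member is a row of the deposited gene table whose Ensembl identifier maps to a symbol made of ZNF and a number and to chromosome 19 of GRCh38. It was kept where at least 3 of the 6 libraries reached 0.5 FPKM (fragments per unit of transcript length, scaled to the library's mapped fragments). The table holds 184 such rows among 16715 identifiers, of the 241 chromosome 19 ZNF genes of GENCODE release 29. The level filter kept 129 of them as members and left 55 outside. The members were thus chosen by their FPKM in all 6 libraries together, and their level is given here as a description only.

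HCT116 is an established human colorectal carcinoma line. The study measured RNA by sequencing in 3 libraries of 5aza-treated cells and 3 libraries of control cells, all at passages 7 to 10. Treated cells received 5 µM 5aza for 48 hours and then grew in fresh medium for another 48 hours, so RNA was taken after a recovery period. For the control cells the labels give no more than the word control, under a treatment protocol text shared by all samples. The sample titles call the agent 5aza, and the sample descriptions code the same libraries DAC and the control libraries NC. The replicates are not said to come from separate cultures, so p-values measure only the spread between these libraries, which may be technical.

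ZNF proteins of this kind bind DNA through tandem arrays of C2H2 zinc fingers, each finger reading a few bases. Many also carry a KRAB domain, which recruits TRIM28 and through it the methyltransferase SETDB1, so that histone H3 near the bound site gains lysine methylation and the site is silenced, often in transposable elements. Their genes arose by repeated duplication and lie in large clusters on chromosome 19, where heterochromatin marks also cover the 3′ ends of the ZNF genes themselves. Azanucleosides such as 5aza trap DNA methyltransferases, so that DNA methylation is lost as cells divide.

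The libraries carried the epithelial markers of the line. The 11 colon carcinoma markers summed to 2849 to 2922 FPKM in the 5aza libraries and 2347 to 2501 FPKM in the control libraries, with KRT8, KRT18, KRT19 and EPCAM high and CDX2 present. Of the differentiation markers, KRT20 stood at 3.04, 3.09 and 3.09 FPKM in 5aza libraries and 0.878, 0.575 and 0.870 FPKM in control libraries, without overlap. VIL1, GPA33, LGALS4 and CDX1 stayed under 0.5 FPKM in every library, and CDX1 was listed at 0 in all control libraries. Markers of other cell types were low, and the sums of the leukocyte and fibroblast lists were higher in every 5aza library than in every control library. The 5 leukocyte markers summed to 1.46 to 2.26 FPKM in 5aza libraries and 0.274 to 0.327 FPKM in control libraries, most of it LAPTM5 in 5aza libraries, and with the defining marker PTPRC at 0.108 FPKM or less in every library. The 6 fibroblast markers summed to 6.71 to 7.71 FPKM in 5aza and 4.57 to 4.95 FPKM in control libraries, nearly all of it COL1A1, while COL1A2 and LUM were at 0 in all control libraries. The 3 endothelial markers summed to 0.208 to 0.584 FPKM and 0.121 to 0.300 FPKM in the 5aza and control libraries, with overlap. Their part in the differences below was not tested. Summed FPKM over the table ran from 577735 to 592051 in 5aza libraries and from 601916 to 628399 in control libraries, and the depth behind a value is unknown.

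Over the members, differences were small, and more fold changes of 5aza over control lay above 0 than below it. The comparison asks which ZNF genes of chromosome 19 differ in RNA level after 5aza. By limma across all 12360 genes past the filter, 13 members rose and 3 fell at a Benjamini-Hochberg adjusted p under 0.05. The 13 rises were 10.1% of the members, beside a background of 10.6% of all genes tested, and the 3 falls were 2.33%, beside a background of 13.1%. Calls in either direction took 12.4% of the members and 23.7% of all genes tested. The share of rises among members is thus near the background. Among the members' calls 81.2% were rises, beside 44.7% of the calls over all genes tested. After scaling every library to the same summed FPKM the members' share became 95.5%, with 21 rises and 1 fall, beside 74.2% over all genes tested. With quantile normalization the 2 shares were 72.7% and 50.5%, and with cyclic loess normalization 75% and 56.4%. With 1 library left out, the members that rose numbered 7, 5 and 8 without 5aza replicates 1, 2 and 3, and 6, 7 and 12 without control replicates 1, 2 and 3. Rises over the whole table numbered 890 to 1078 in these fits, against 1310 with all libraries.

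The median log2 fold change of the members was 0.14, against -0.01 over all genes tested. A fold change above 0 was found in 90 of 129 members (69.8%), beside 48% of all genes tested, a share that varied with level as given below. Individual values ran from -0.49 to 0.72, so no member differed 2-fold, a size reached by 315 of the 12360 genes tested. The median level of the members was 3.70 FPKM in 5aza cells and 3.32 FPKM in control cells. In 34 members every 5aza library lay above every control library (26.4%, beside 19.6% of all genes tested), and in 10 every 5aza library lay below (7.75%, beside 22.6%). In bulk RNA a difference in the number of expressing cells and a difference in RNA per cell cannot be told apart. The median was above 0 in every setting tried, and fell to 0.03 under quantile normalization and to 0.06 under cyclic loess normalization.

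The plot of fold change by position shows these differences in chromosomal order, with the 16 members that passed the test spread over 5 clusters.

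**Figure D1:**
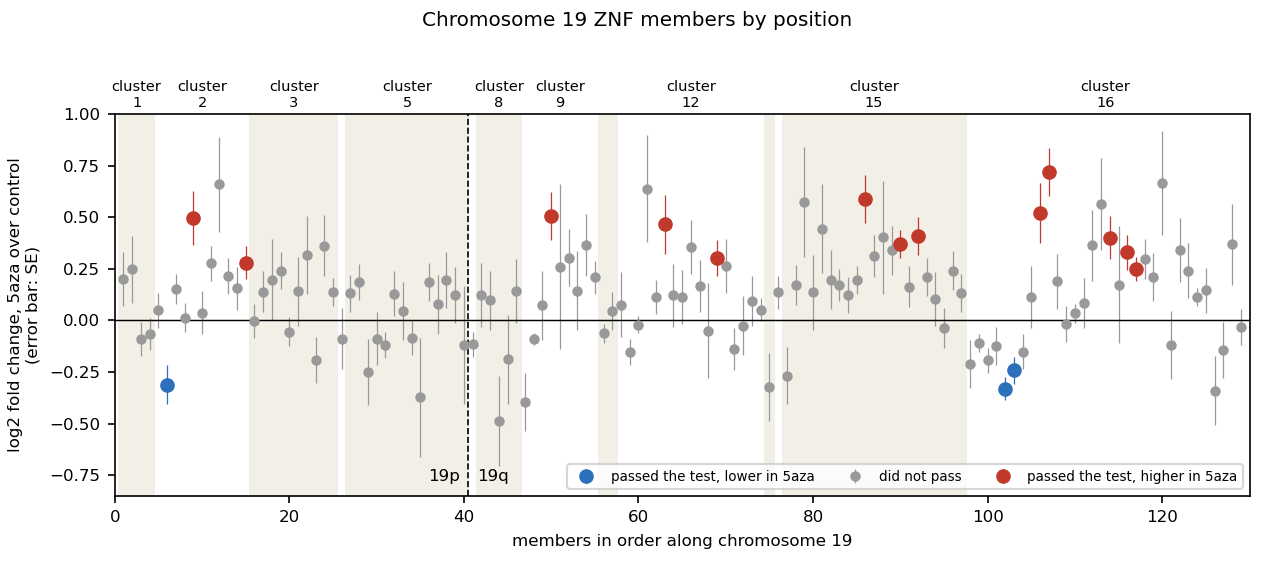
The horizontal axis gives the 129 members in order along chromosome 19 and the vertical axis the log2 fold change of 5aza over control on the log2(FPKM + 0.1) scale, with bars for its SE, red for the 13 that rose, blue for the 3 that fell and grey for the rest; shading alternates between clusters and the dashed line separates 19p from 19q. The first 7 members of cluster 16 all lie below 0, and the 5 called rises of that cluster lie in its distal part.

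The short and the long arm gave similar medians. On 19p, 2 of 40 members rose (5%) and 1 fell (2.5%), with a median log2 fold change of 0.13 and 27 members above 0. On 19q, 11 of 89 members rose (12.4%) and 2 fell (2.25%), with a median of 0.14 and 63 members above 0. Among all genes tested 10.6% rose and 13.1% fell, so the share of rises on 19q is near the background. The difference between the arms was not tested. Among ZNF genes of other chromosomes, 10 of 180 rose and 8 fell, with a median of 0.00 and 90 above 0. Among the other 754 genes of chromosome 19, 88 rose and 147 fell, with a median of -0.06. These sets are given as descriptions, with no test between them. With quantile or cyclic loess normalization 0 members of 19p rose, and without 5aza replicate 2 or without control replicate 2 the count on 19p was 0 as well.

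Clusters were taken as runs of annotated chromosome 19 ZNF genes with gaps under 1 Mb between gene starts. This gave 16, of which 8 hold at least 5 members. The rises and falls counted per cluster stand beside a background of 10.6% rises and 13.1% falls among all genes tested. Cluster 15, from 51.57 to 53.58 Mb on 19q, had 19 of 21 members above 0, a median log2 fold change of 0.20, and 3 rises and 0 falls. Cluster 9, from 36.18 to 37.82 Mb, had 7 of 9 members above 0, a median of 0.21 and 1 rise. Cluster 2, from 7.07 to 9.79 Mb on 19p, had 10 of 11 members above 0, a median of 0.16, 2 rises and 1 fall. Cluster 12, from 43.53 to 45.08 Mb, had 12 of 17 members above 0, a median of 0.11 and 2 rises. Cluster 3, from 11.48 to 12.64 Mb, had a median of 0.14 over 10 members, and none of these 10 passed the test. Cluster 5 on 19p, from 19.67 to 24.13 Mb, and cluster 8 on 19q, from 34.68 to 34.96 Mb, had medians of 0.06 and 0.10 over 14 and 5 members, also with 0 calls. The medians of clusters 5 and 8 turned below 0 under quantile normalization (-0.04 and -0.06) and under cyclic loess normalization (-0.02 and -0.02), while the other 6 clusters with at least 5 members stayed above 0 in these settings and with the same summed FPKM.

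Cluster 16, the telomeric cluster from 55.48 to 58.48 Mb, was not uniform. Its 7 members that start before 57 Mb (ZNF628, ZNF579, ZNF524, ZNF784, ZNF581, ZNF787 and ZNF444) all had fold changes below 0, with a median of -0.19 and 2 falls. Of its 25 members from 57 Mb on, 20 had fold changes above 0, with a median of 0.21, 5 rises and 0 falls. The background over all genes tested was 10.6% rises and 13.1% falls. The 7 were below 0 with the same summed FPKM, quantile and cyclic loess normalization as well. This division of the cluster was chosen after the values were seen, so it has no test. It also divides the members by level and by the KRAB pattern described below, which none of the 7 carries. ZNF581, ZNF787, ZNF579 and ZNF524 averaged over 20 FPKM in both groups, and ZNF444, ZNF628 and ZNF784 were lower. Of all genes tested at a mean of 20 FPKM or more, 31.9% had fold changes above 0 and 26.4% fell. The part of level in this division was not tested. Over the whole chromosome, 115 pairs of members were neighbours within a cluster. In 66 pairs both fold changes were above 0, in 15 both were below, and in 34 they had opposite signs. Both neighbours passed as rises in 2 pairs.

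The counts per cluster are drawn for members and for the genes that the level filter left out.

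**Figure D2:**
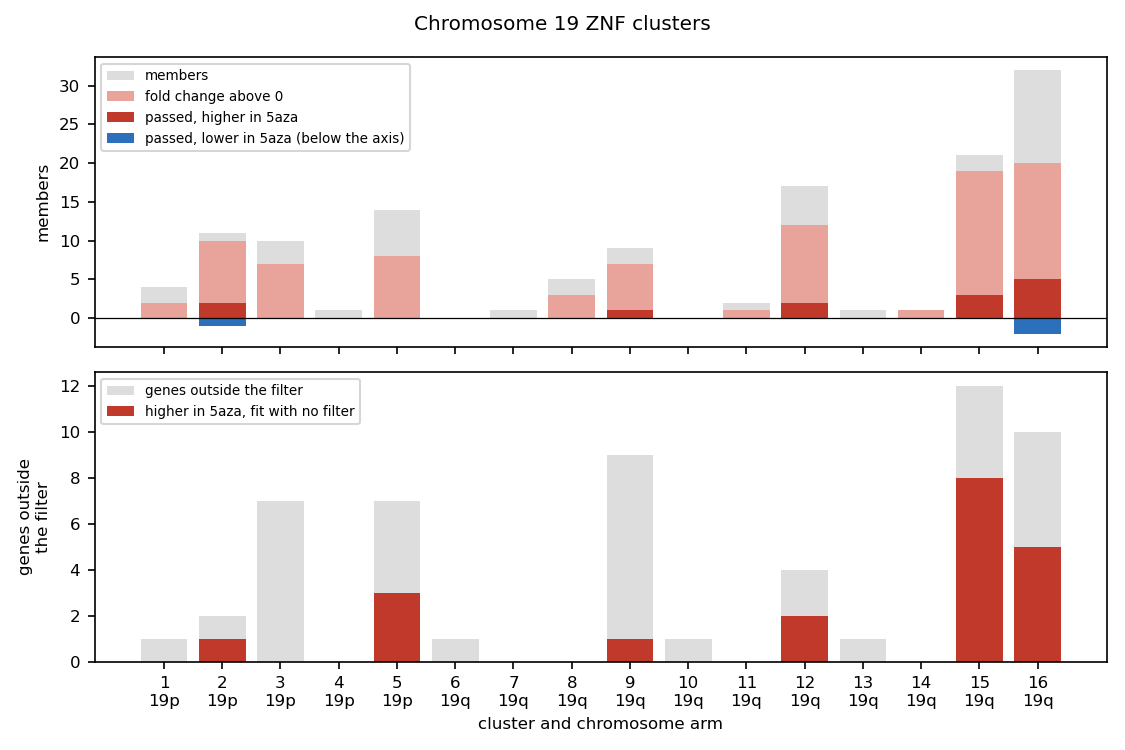
Bars over the 16 clusters in chromosomal order count members (grey), members with a fold change above 0 (pale red), members that rose (red) and members that fell (blue, below the axis) in the upper panel, and genes outside the filter (grey) with those higher in 5aza in the fit with no filter (red) in the lower panel. Clusters 15 and 16 hold 8 of the 13 rises among members and 13 of the 20 calls outside the filter. They are also the largest, with 21 and 32 of the 129 members and 12 and 10 of the 55 genes outside the filter. Rises took 10.6% of all genes tested and, in the fit with no filter, 13.6% of all genes outside the filter.

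ZNF460 had the largest rise of all members. The gene lies at chr19:57280051-57293569 on the plus strand, in the distal part of cluster 16, and its coding sequence holds 11 zinc finger patterns and a KRAB pattern. The sequence before its start is shown because it belongs to the member with the largest change, with every CpG, the site of DNA methylation, in capitals. DNA methylation itself was not analysed here. The sequence is RefSeq's, from GRCh38.p14, plus strand, chr19:57279732-57279981, the 250 bases before 1 of the gene's starts, and it holds 12 CpG.
ZNF460: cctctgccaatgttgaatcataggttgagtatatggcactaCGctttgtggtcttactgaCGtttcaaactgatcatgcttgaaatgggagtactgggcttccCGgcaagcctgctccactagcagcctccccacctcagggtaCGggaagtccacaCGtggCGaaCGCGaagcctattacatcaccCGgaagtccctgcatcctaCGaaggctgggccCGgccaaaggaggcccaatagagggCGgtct

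ZNF460 stood at 1.89, 2.02 and 2.04 FPKM in 5aza libraries, against 1.14, 1.12 and 1.24 FPKM in control libraries. The groups did not overlap, and the spread within each was small beside the gap. The means were 1.99 ± 0.0796 FPKM in 5aza cells and 1.17 ± 0.062 FPKM in control cells (SD, n = 3 each), a log2 fold change of 0.72 ± 0.12 (SE) and an adjusted p of 0.00462. The call held in all 16 alternatives, with adjusted p from 0.00131 to 0.0224. A gene with a clone name on the other strand, AC005261.5, overlaps 13.9% of its exon bases, and the labels do not say whether reads were counted by strand.

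The other rises of distal cluster 16 were smaller. ZNF805, with 13 fingers, gave 1.67, 2.17 and 1.66 FPKM in 5aza libraries, against 1.18, 1.2 and 1.35 FPKM in control libraries. For ZNF805 the log2 fold change was 0.52 ± 0.15 (SE) and the adjusted p was 0.0388, with a range of 0.0274 to 0.13 over the alternatives. This call was lost when any 1 of the 6 libraries was left out. ZNF416, with 11 fingers, gave 2.78, 2.43 and 2.83 FPKM in 5aza libraries, against 2.07, 1.99 and 1.95 FPKM in control libraries, so that its control libraries were close together. For ZNF416 the log2 fold change was 0.40 ± 0.10 (SE) and the adjusted p was 0.0286, with a range of 0.0165 to 0.106, and the call was lost without 5aza replicate 1 or 3 or any control replicate. ZNF211, with 11 fingers, gave 7.64, 8.17 and 8.72 FPKM in 5aza libraries, against 6.93, 6.67 and 5.88 FPKM in control libraries, without overlap. For ZNF211 the log2 fold change was 0.33 ± 0.08 (SE) and the adjusted p was 0.0262, with a range of 0.0102 to 0.0865, and the call was lost without 5aza replicate 2 or 3 or control replicate 2 or 3. ZNF776, the member with the smallest of the 13 rises and named after its values were seen, gave 11.5, 11.5 and 10.5 FPKM in 5aza libraries, against 9.01, 9.61 and 9.56 FPKM in control libraries. For ZNF776 the log2 fold change was 0.25 ± 0.06 (SE) and the adjusted p was 0.0214, with a range of 0.00783 to 0.0684, and the call was lost without 5aza replicate 1 or 2 or control replicate 1. All 4 genes carry the KRAB pattern. With the replicate number as a block, ZNF805, ZNF416 and ZNF211 were among the calls lost.

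In cluster 15, ZNF701, ZNF28 and ZNF816 rose, and ZNF701 and ZNF28 kept their calls in all 16 alternatives. ZNF701 lies at chr19:52555457-52587174 on the plus strand and holds 7 fingers and a KRAB pattern. The sequence before 1 of its starts is shown beside that of ZNF460 as the second largest rise, with CpG in capitals. It is chr19:52570037-52570286, plus strand, RefSeq, GRCh38.p14, within the span of the gene as GENCODE gives it, and holds 20 CpG.
ZNF701: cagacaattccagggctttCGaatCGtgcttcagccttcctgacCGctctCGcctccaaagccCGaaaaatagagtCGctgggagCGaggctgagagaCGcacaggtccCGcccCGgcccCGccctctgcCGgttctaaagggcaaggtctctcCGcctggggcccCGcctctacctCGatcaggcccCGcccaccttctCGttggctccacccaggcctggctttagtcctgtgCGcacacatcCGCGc

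ZNF701 gave 5.54, 5.15 and 4.44 FPKM in 5aza libraries, against 2.91, 3.62 and 3.45 FPKM in control libraries. Every 5aza library was above every control library, with 5aza replicate 3 the lowest of its group. The means were 5.04 ± 0.553 FPKM in 5aza cells and 3.32 ± 0.369 FPKM in control cells (SD, n = 3 each), a log2 fold change of 0.59 ± 0.12 (SE) and an adjusted p of 0.0108. ZNF28, with 15 fingers, at chr19:52797409-52857600 on the minus strand, gave 13.1, 13.1 and 11.6 FPKM in 5aza libraries, against 9.67, 10.2 and 9.37 FPKM in control libraries. Its means were 12.6 ± 0.869 FPKM in 5aza cells and 9.73 ± 0.396 FPKM in control cells (SD, n = 3 each), a log2 fold change of 0.37 ± 0.07 (SE) and an adjusted p of 0.00692. ZNF816, also with 15 fingers, gave 10.4, 11.9 and 12.1 FPKM in 5aza libraries, against 8.11, 8.07 and 9.74 FPKM in control libraries, and its groups did not overlap. For ZNF816 the log2 fold change was 0.41 ± 0.09 (SE) and the adjusted p was 0.0175, with a range of 0.00785 to 0.063 over the alternatives, and the call was lost without 5aza replicate 2 or 3 or control replicate 1 or 2. Genes of this cluster resemble each other in sequence. Of the 31-base words in their transcripts, 21.3% in ZNF701, 22.3% in ZNF28 and 27.2% in ZNF816 also occur in transcripts of another gene. The other genes include those annotated over the same bases. Same-strand genes cover 9.9% of the exon bases of ZNF701, 0.5% of those of ZNF28 and 9.4% of those of ZNF816. The assignment of reads between copies and between overlapping genes, and with it these values, is uncertain.

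In clusters 9 and 12 of 19q, ZNF567, ZNF221 and ZNF226 rose. ZNF567, a KRAB pattern gene with 14 fingers, gave 5.79, 4.71 and 4.31 FPKM in 5aza libraries, against 3.24, 3.53 and 3.5 FPKM in control libraries. Its libraries did not overlap, though the 5aza libraries spread more widely. For ZNF567 the log2 fold change was 0.51 ± 0.12 (SE) and the adjusted p was 0.0186, with a range of 0.00914 to 0.0573, and the call was lost in 1 alternative, without control replicate 1. ZNF226, with 17 fingers, gave 19.8, 16.7 and 15.96 FPKM in 5aza libraries, against 13.4, 13.9 and 15.1 FPKM in control libraries, with 5aza replicate 1 above the rest. For ZNF226 the log2 fold change was 0.30 ± 0.09 (SE) and the adjusted p was 0.0425, with a range of 0.0173 to 0.12, and the call was lost without 5aza replicate 1 or 2 or control replicate 1 or 2. It was also lost under the replicate block. ZNF221, with 15 fingers, gave 2.4, 2.73 and 2.52 FPKM in 5aza libraries, against 1.78, 2.18 and 1.54 FPKM in control libraries. For ZNF221 the log2 fold change was 0.47 ± 0.14 (SE) and the adjusted p was 0.0489, with a range of 0.0251 to 0.138, and the call was lost without any single 5aza library or without control replicate 1 or 3.

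On 19p, ZNF699 and ZNF562 of cluster 2 rose. ZNF699, with 15 fingers and a KRAB pattern, gave 2.16, 2.67 and 2.34 FPKM in 5aza libraries, against 1.5, 1.62 and 1.86 FPKM in control libraries. For ZNF699 the log2 fold change was 0.50 ± 0.13 (SE) and the adjusted p was 0.0308, with a range of 0.0228 to 0.0931, and the call was lost without 5aza replicate 2 or 3 or control replicate 1 or 2. ZNF562, with 6 fingers and a KRAB pattern, gave 11.3, 11.03 and 9.94 FPKM in 5aza libraries, against 9.7, 8.52 and 8.34 FPKM in control libraries, where the lowest 5aza library lay just above the highest control library. For ZNF562 the log2 fold change was 0.28 ± 0.08 (SE) and the adjusted p was 0.0387, with a range of 0.0111 to 0.111, and the call was lost without 5aza replicate 1 or 2 or control replicate 2 or 3. The antisense gene ZNF561-AS1 overlaps 18.9% of the exon bases of ZNF562, and the 2 cannot be told apart where strand was not counted.

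The values per library of all 16 members that passed are plotted together.

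**Figure D3:**
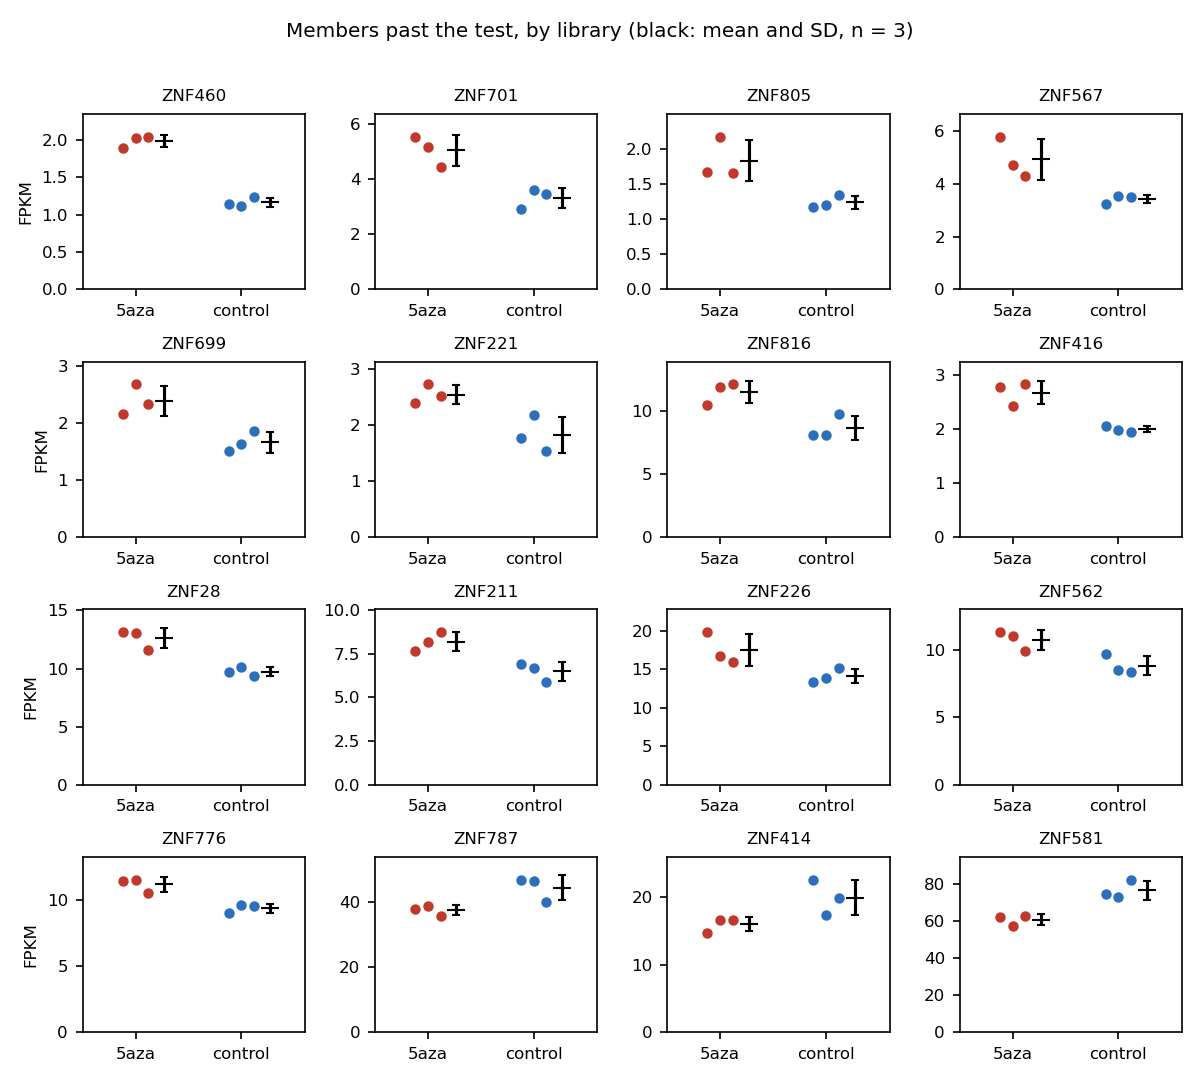
Each panel gives 1 member, with FPKM on the vertical axis from 0, the 3 5aza libraries in red left of the 3 control libraries in blue, and the mean with its SD in black. In each of the 16 panels the groups do not overlap, with 13 members higher and 3 lower in 5aza.

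The 3 members that fell lack the KRAB pattern and are among the more abundant members. ZNF581, the most abundant member, lies at chr19:55635459-55645622 on the plus strand in proximal cluster 16 and holds 4 fingers. The sequence before 1 of its starts is shown as that of the member with the largest fall, for comparison with the rises, with CpG in capitals. It is chr19:55643399-55643648, plus strand, RefSeq, GRCh38.p14, and holds 19 CpG.
ZNF581: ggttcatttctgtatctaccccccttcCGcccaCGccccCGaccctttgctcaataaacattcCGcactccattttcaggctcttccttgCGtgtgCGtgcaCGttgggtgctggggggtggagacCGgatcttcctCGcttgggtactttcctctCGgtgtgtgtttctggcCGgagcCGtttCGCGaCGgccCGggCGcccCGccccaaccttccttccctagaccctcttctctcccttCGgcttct

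ZNF581 gave 62.4, 57.5 and 62.7 FPKM in 5aza libraries, against 74.8, 72.8 and 82.3 FPKM in control libraries. Every 5aza library was lower than every control library. The means were 60.9 ± 2.88 FPKM in 5aza cells and 76.6 ± 5.02 FPKM in control cells (SD, n = 3 each), a log2 fold change of -0.33 ± 0.06 (SE) and an adjusted p of 0.00531, and the call held in all 16 alternatives, with adjusted p from 0.00393 to 0.0315. CCDC106 and ZNF580, on the same strand, overlap 23.4% of its exon bases, and how reads there were assigned is not stated. ZNF787, with 7 fingers, gave 37.6, 38.8 and 35.7 FPKM in 5aza libraries, against 46.7, 46.3 and 40.0 FPKM in control libraries. For ZNF787 the log2 fold change was -0.24 ± 0.06 (SE) and the adjusted p was 0.0329, with a range of 0.00588 to 0.103, and the call was lost without any single 5aza library or without control replicate 1 or 2. ZNF414, on 19p with 3 fingers, gave 14.7, 16.6 and 16.5 FPKM in 5aza libraries, against 22.5, 17.4 and 19.8 FPKM in control libraries. For ZNF414 the log2 fold change was -0.31 ± 0.09 (SE) and the adjusted p was 0.0495, with a range of 0.02 to 0.137, and the call was lost in 13 of 16 alternatives. Those included every alternative that left out 1 library, apart from control replicate 2, and the replicate block. With the same summed FPKM the calls of ZNF787 and ZNF414 were lost, so ZNF581 was the 1 fall left.

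Other settings ended calls of members as well. With quantile and with cyclic loess normalization, ZNF805, ZNF416, ZNF221, ZNF699, ZNF562 and ZNF414 no longer passed. With no filter the calls of ZNF805, ZNF221, ZNF226, ZNF562 and ZNF414 were lost, and with no variance trend those of ZNF221, ZNF226, ZNF562, ZNF414 and ZNF787. ZNF221 and ZNF414 also lost theirs with a pseudocount of 0.01 and with a filter on a mean of at least 0.5 FPKM.

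The other most abundant members did not pass the test. ZNF146, whose protein consists almost wholly of zinc fingers, gave 47.4, 47.98 and 47.5 FPKM in 5aza libraries, against 50.4, 51.03 and 50.9 FPKM in control libraries. Its groups did not overlap, yet the difference was small, with a log2 fold change of -0.09 ± 0.03 (SE) and an adjusted p of 0.054. ZNF428 gave 31.8, 34.1 and 32.1 FPKM in 5aza libraries, against 32.7, 32.8 and 33.7 FPKM in control libraries, with overlapping groups and a log2 fold change of -0.02 ± 0.04 (SE) and an adjusted p of 0.754. The sign for ZNF428 turned with the same summed FPKM, quantile and cyclic loess normalization. ZNF579 gave 27.5, 25.7 and 25.5 FPKM in 5aza libraries, against 27.9, 29.3 and 27.7 FPKM in control libraries, with a log2 fold change of -0.11 ± 0.04 (SE) and an adjusted p of 0.115.

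ZNF274 is known to recruit SETDB1 to the 3′ ends of ZNF genes. It gave 4.34, 5.23 and 3.74 FPKM in 5aza libraries, against 3.96, 3.32 and 3.88 FPKM in control libraries, with overlapping groups. For ZNF274 the log2 fold change was 0.24 ± 0.13 (SE) and the adjusted p was 0.232, so the gene did not pass. Some members with known roles were chosen after their values were seen, and none of them passed. ZNF91, known as a repressor of primate retrotransposons and with 32 fingers the longest array among members, averaged 3.06 ± 0.419 FPKM in 5aza cells and 2.65 ± 0.342 FPKM in control cells (SD, n = 3 each), with an adjusted p of 0.332. ZNF473, which takes part in the 3′ end processing of histone transcripts, averaged 5.16 ± 0.162 FPKM in 5aza cells and 4.69 ± 0.374 FPKM in control cells (SD, n = 3 each), with an adjusted p of 0.265. ZNF350, which has been studied as a partner of BRCA1, averaged 1.69 ± 0.0467 FPKM in 5aza cells and 1.56 ± 0.406 FPKM in control cells (SD, n = 3 each), with an adjusted p of 0.632. ZNF224, a repressor of the aldolase A gene, averaged 3.76 ± 0.084 FPKM in 5aza cells and 2.95 ± 0.526 FPKM in control cells (SD, n = 3 each), with an adjusted p of 0.0878.

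Beyond the 13 rises, 21 members had every 5aza library above every control library without passing the test. Together with the rises, such members were 26.4% of all members, beside 19.6% of all genes tested. Of the 21, 3 that lay close to the threshold were chosen after their values were seen. ZNF266 on 19p gave 4.64, 5.04 and 5.43 FPKM in 5aza libraries, against 3.88, 4.35 and 4.18 FPKM in control libraries (adjusted p = 0.0555). ZNF83 in cluster 15 gave 9.48, 10.2 and 10.9 FPKM in 5aza libraries, against 7.02, 8.58 and 9.02 FPKM in control libraries (adjusted p = 0.0597). ZNF480, also in cluster 15, gave 10.7, 12.2 and 11.1 FPKM in 5aza libraries, against 9.34, 9.99 and 10.3 FPKM in control libraries (adjusted p = 0.0758). In each the lowest 5aza library was within 0.5 FPKM of the highest control library. In the other direction, ZNF524 in proximal cluster 16, picked in the same way, gave 20.7, 22.1 and 23.8 FPKM in 5aza libraries, against 24.4, 25.1 and 26.7 FPKM in control libraries, without overlap (adjusted p = 0.0539).

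Several members had large fold changes with wide spreads and did not pass, and they too were chosen after their values were seen. ZNF814 gave 1.82, 1.69 and 1.06 FPKM in 5aza libraries, against 0.697, 1.18 and 0.884 FPKM in control libraries, a log2 fold change of 0.67 ± 0.25 (SE) and an adjusted p of 0.0945. ZNF426 gave 1.09, 1.16 and 1.3 FPKM in 5aza libraries, against 0.711, 0.506 and 0.981 FPKM in control libraries, a log2 fold change of 0.66 ± 0.23 (SE) and an adjusted p of 0.0751. ZNF283 gave 3.81, 5.71 and 3.27 FPKM in 5aza libraries, against 3.76, 2.29 and 2.1 FPKM in control libraries, with 5aza replicate 2 the highest, a log2 fold change of 0.64 ± 0.26 (SE) and an adjusted p of 0.117. In ZNF599, the member with the lowest fold change, the libraries gave 1.01, 0.823 and 0.542 FPKM in 5aza libraries, against 1.1, 1.08 and 1.18 FPKM in control libraries, a log2 fold change of -0.49 ± 0.22 (SE) and an adjusted p of 0.147.

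Fold change varied with level, among members as in the whole table. Over the 129 members, Pearson's r between log2 fold change and log2 mean level was -0.28, a description across genes measured in the same 6 libraries. The 9 members under 1 FPKM had a median log2 fold change of 0.26 and 0 calls, beside a median of 0.20 over the 940 genes tested at that level, of which 19.5% rose and 0.532% fell. The 76 members from 1 to 5 FPKM had a median of 0.14, 7 rises and 0 falls, beside a median of 0.07, 11.6% rises and 1.98% falls among 2574 genes. The 36 members from 5 to 20 FPKM had a median of 0.12, 6 rises and 1 fall, beside a median of 0.01, 10.2% rises and 8.7% falls among 4370 genes. The 8 members at 20 FPKM or more had a median of -0.10, 0 rises and 2 falls, beside a median of -0.06, 8.53% rises and 26.4% falls among 4476 genes. From the lowest to the highest of these levels, 66.7%, 75%, 69.4% and 25% of members had fold changes above 0. Over all genes tested the shares were 68.5%, 62%, 51.9% and 31.9%. Members are mostly of low level, with a median of 3.49 FPKM over all libraries beside 12.5 FPKM for all genes tested. The part of level in the difference between the members and the whole table was not tested.

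**Figure D4:**
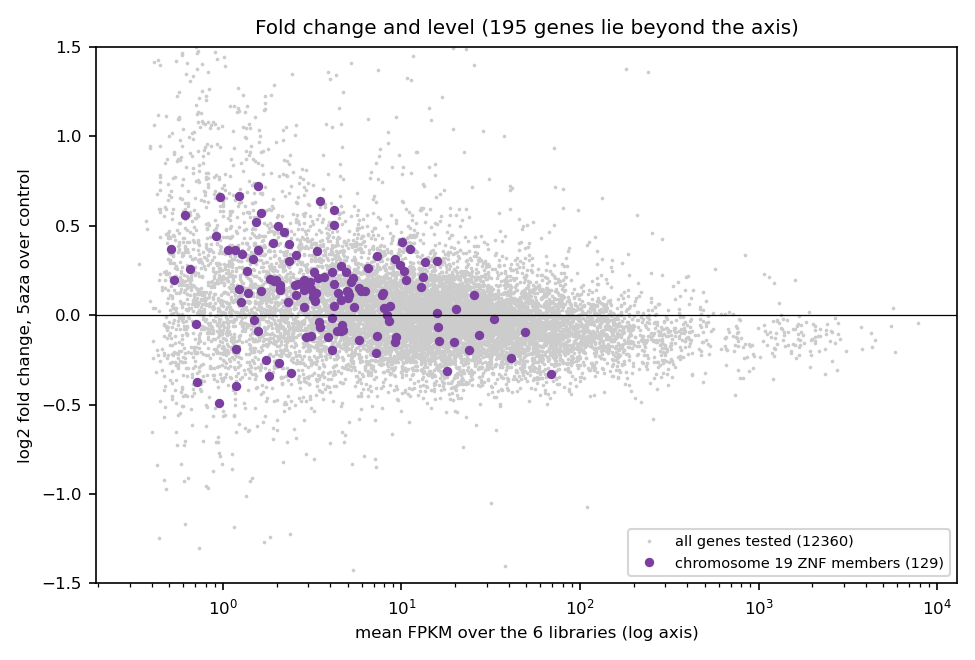
The horizontal axis gives the mean FPKM over the 6 libraries on a log scale and the vertical axis the log2 fold change of 5aza over control, with all 12360 genes tested in grey and the 129 members in purple. Fold changes lean above 0 at low level and below 0 at high level in both, and no member lies beyond 0.72.

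Members with and without a KRAB pattern are described side by side. The pattern (a phenylalanine, then glutamates and a tryptophan in the first 150 codons) was found in the coding sequence of 88 members and not in 41. Of the 88, 11 rose (12.5%) and 0 fell, 70 had fold changes above 0, and the median log2 fold change was 0.15. Of the 41, 2 rose (4.88%) and 3 fell (7.32%), and 20 had fold changes above 0. Their median was -0.02, which turned to 0.06 with the same summed FPKM. Among all genes tested 10.6% rose and 13.1% fell, so the share of rises with the pattern is near the background. The 41 were also of higher level, with a median of 5.41 FPKM beside 3.23 FPKM. Within members at 5 FPKM or more, 18 of 21 with the pattern and 9 of 23 without it lay above 0, with medians of 0.14 and -0.09. Below 5 FPKM, 52 of 67 with the pattern and 11 of 18 without it lay above 0, with medians of 0.17 and 0.12. These are descriptions with no test. The pattern is strict and was found in 1 of the 17 members of cluster 12, so a gene without it may still encode a KRAB domain.

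The number of zinc finger patterns ran from 0 to 32 with a median of 12. The median log2 fold change was 0.07 for the 46 members with up to 10 fingers, 0.14 for the 45 with 11 to 14 and 0.18 for the 38 with 15 or more. Of these groups, 3, 5 and 5 members rose (6.52%, 11.1% and 13.2%, beside 10.6% of all genes tested). The 3 falls were all among members with up to 10 fingers (6.52%, beside 13.1% of all genes tested). The groups also differed in level, with medians of 5.38, 3.11 and 3.28 FPKM, and the part of level was not tested. RefSeq promoters (250 bases before to 50 after a start) were matched for 115 members and for 164 of all 184 rows. They held a median of 21 CpG, with a range of 6 to 37, beside a median of 14 over all 35116 promoters of the table, and their median GC content was 61% beside 58.7%. The fold change did not follow the CpG count closely, with medians of 0.13 under 18 CpG, 0.14 from 18 to 24 CpG and 0.12 at 25 CpG or more. The ETS factor motif CCGGAAG, searched on both strands, occurred in 49 of the 115 promoters (42.6%), beside 10.26% of all promoters. Of those 49, 7 belong to members that rose, as do 10 of all 115, beside rises in 10.6% of all genes tested. Whether rises go with the motif was not tested. The sequence of ZNF460 printed above contains this motif. A match is a description of the sequence only.

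The 55 chromosome 19 ZNF genes that the filter left out were low in both groups, at 0.87 FPKM or less in every 5aza library and 0.589 FPKM or less in every control library. In a fit with no filter, over 16627 genes, 20 of the 55 rose and 0 fell (36.4%, beside rises in 13.6% of the 4267 genes outside the filter, and rises in 10.7% and falls in 8.79% of all genes in that fit). The rule of membership excludes these genes, and their count was added after the data were seen. Without control replicate 1 or control replicate 2 the count was 12, and with quantile normalization it was 10. Of the 55, 27 were listed at 0 in all control libraries, and 20 of these 27 were above 0 in all 5aza libraries, that is 36.4% of the 55, beside 9.91% of all genes outside the filter. In the other direction, 4 were at 0 in all 5aza libraries and 0 of them above 0 in all control libraries, beside 0.117%. Of the 27, 12 passed the test, beside 251 (28.1%) of the 894 genes outside the filter that were at 0 in every control library. The 27 were picked by their control values, so a call among them could only be a rise. Their control libraries had an SD of 0, so these 12 calls are a count and no support for a rise of the set. Among ZNF genes of other chromosomes outside the filter, 7 of 24 rose and 0 fell.

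The count of chromosome 19 ZNF rows listed at 0 was 12, 8 and 11 in the 5aza libraries and 40, 35 and 36 in the control libraries. Over the whole table it was 801, 755 and 783 in 5aza libraries and 1761, 1724 and 1663 in control libraries, so zeros were fewer after 5aza over the whole table too. Of 72 ribosomal protein genes, which every cell uses, 0 were listed at 0 in 5aza libraries and 2 in each control library, so a value of 0 can be a failed estimate. Genes at 0 are therefore given by their values, with no fold change. Where every control library is at 0, the adjusted p rests on a control group with no spread of its own.

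ZNF880, ZNF528 and ZNF534 are neighbours in cluster 15, starting at 52.37, 52.40 and 52.43 Mb, and ZNF528 and ZNF534 were chosen after their values were seen. The sequences before a start of ZNF880 and ZNF528 are shown because these adjacent genes had the highest mean 5aza levels among the genes listed at 0 in at least 2 control libraries, with CpG in capitals. They are RefSeq's, GRCh38.p14, plus strand, chr19:52369673-52369922 with 17 CpG and chr19:52397599-52397848 with 23 CpG. The ETS motif occurs in the RefSeq promoters of both genes. In ZNF528 it lies within the bases printed, and in ZNF880 it lies beyond them.
ZNF880: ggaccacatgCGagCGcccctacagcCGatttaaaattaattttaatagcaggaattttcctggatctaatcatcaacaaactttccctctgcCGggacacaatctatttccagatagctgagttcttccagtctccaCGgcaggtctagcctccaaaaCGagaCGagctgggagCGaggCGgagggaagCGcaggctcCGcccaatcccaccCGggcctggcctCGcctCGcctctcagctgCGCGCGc
ZNF528: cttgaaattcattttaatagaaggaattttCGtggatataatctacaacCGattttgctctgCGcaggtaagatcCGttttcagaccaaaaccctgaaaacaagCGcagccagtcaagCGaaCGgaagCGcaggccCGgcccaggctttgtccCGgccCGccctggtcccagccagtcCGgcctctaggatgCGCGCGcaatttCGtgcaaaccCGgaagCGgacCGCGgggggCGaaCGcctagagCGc

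ZNF880 was listed at 0.474, 0.636 and 0.634 FPKM in 5aza libraries, against 0, 0 and 0.0128 FPKM in control libraries. Its call held in all 12 added settings, with adjusted p = 0.000199 and a range of 0.000162 to 0.00396. ZNF528 was listed at 0.5, 0.203 and 0.334 FPKM in 5aza libraries, against 0, 0 and 0 FPKM in control libraries, with adjusted p = 0.00252 and a range of 0.000678 to 0.0216. ZNF534, which in human pluripotent cells is known for binding endogenous retroviral elements, was listed at 0.151, 0.37 and 0.0958 FPKM in 5aza libraries, against 0, 0 and 0 FPKM in control libraries. Its adjusted p was 0.0181, with a range of 0.00304 to 0.0722, and the call was lost without 5aza replicate 1 or any control replicate, and with a pseudocount of 1 or quantile normalization. ZNF610, at 52.34 Mb, was listed at 0.0606, 0.039 and 0.0743 FPKM in 5aza libraries, against 0, 0 and 0 FPKM in control libraries, with adjusted p = 0.0205. The range for ZNF610 was 0.00685 to 0.129, and its call was lost without control replicate 1 or 2, and with the replicate block, a pseudocount of 1 or quantile normalization.

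Further genes outside the filter, chosen after their values were seen, kept their calls in all 12 added settings. ZNF560 in cluster 2 was listed at 0.196, 0.19 and 0.134 FPKM in 5aza libraries, against 0, 0 and 0 FPKM in control libraries (adjusted p = 0.00145). ZNF506, ZNF429 and ZNF43 lie in cluster 5, where 0 members passed. Of these, ZNF506 was listed at 0.433, 0.262 and 0.359 FPKM in 5aza libraries, against 0.0806, 0.0634 and 0.0165 FPKM in control libraries (adjusted p = 0.00565). ZNF43 was listed at 0.0742, 0.0729 and 0.103 FPKM in 5aza libraries, against 0, 0 and 0 FPKM in control libraries (adjusted p = 0.00621), and ZNF429 at 0.0742, 0.0699 and 0.0726 FPKM in 5aza libraries, against 0, 0 and 0 FPKM in control libraries (adjusted p = 0.00621). ZNF260 in cluster 9, ZNF229 in cluster 12, ZNF813 in cluster 15 and ZNF671 in cluster 16 complete this group, with 5aza levels of 0.0685 to 0.232 FPKM in every library, and with ZNF260, ZNF229 and ZNF813 at 0 in all control libraries. ZNF671 is known as a gene methylated in carcinomas and was listed at 0.136, 0.232 and 0.176 FPKM in 5aza libraries, against 0.0117, 0.0114 and 0 FPKM in control libraries. ZNF331, an imprinted gene, was listed at 0.0497, 0.074 and 0.0639 FPKM in 5aza libraries, against 0, 0 and 0 FPKM in control libraries, with adjusted p = 0.0124 and a range of 0.00405 to 0.0821, and its call was lost with quantile normalization. ZNF382, known as a silenced gene of carcinomas, was listed at 0 in all 5aza libraries and at 0.00374, 0 and 0 FPKM in control libraries. ZNF582 and ZNF154, also known as genes methylated in carcinomas, did not pass, with adjusted p of 0.058 and 0.095.

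**Figure D5:**
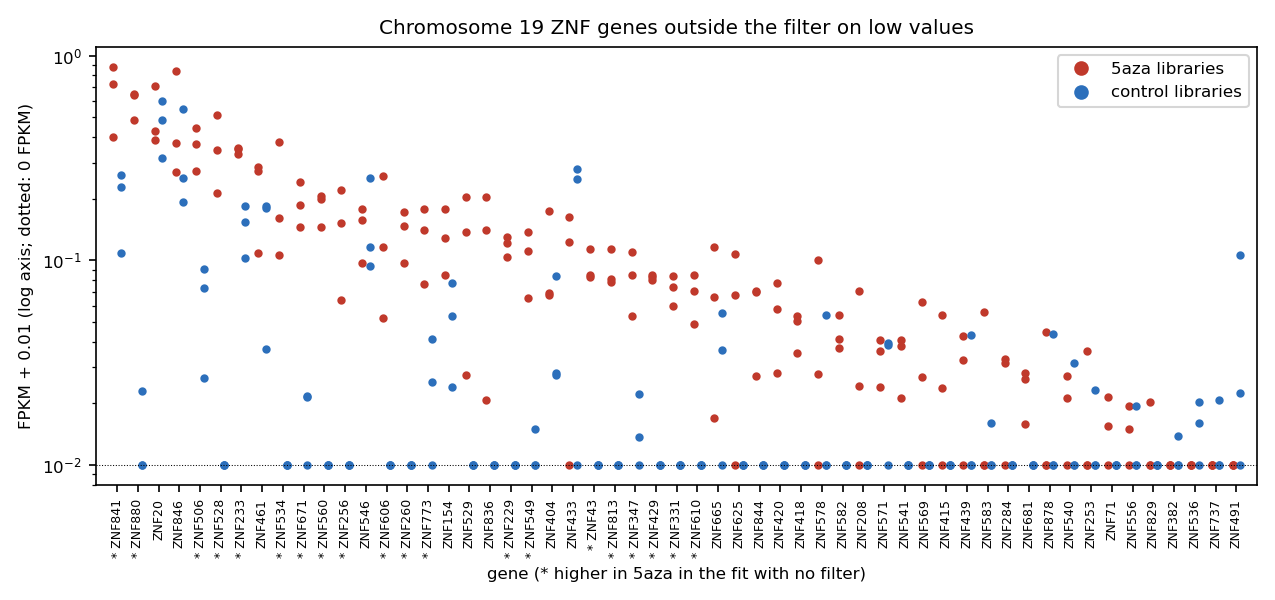
For each of the 55 chromosome 19 ZNF genes outside the filter, points give FPKM + 0.01 on a log axis in the 3 5aza libraries (red, left) and the 3 control libraries (blue, right), with genes ordered by 5aza level and asterisks on the 20 that were higher in 5aza in the fit with no filter. Most blue points lie on the dotted line, which marks 0 FPKM, and all red points stay below 1 FPKM.

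The genes next to the filter's limit are given as a description. Just inside, by the third highest of the 6 values, were ZNF441, ZNF132 and ZNF493. ZNF441 gave 0.542, 0.551 and 0.628 FPKM in 5aza libraries, against 0.501, 0.419 and 0.547 FPKM in control libraries. ZNF132 gave 0.593, 0.566 and 0.603 FPKM in 5aza libraries, against 0.373, 0.476 and 0.455 FPKM in control libraries, and it was the 1 member that passed the filter through its 5aza libraries alone. ZNF493 gave 0.549, 0.515 and 0.715 FPKM in 5aza libraries, against 1.26, 0.633 and 0.608 FPKM in control libraries. Just outside, ZNF20 gave 0.417, 0.701 and 0.379 FPKM in 5aza libraries, against 0.476, 0.589 and 0.304 FPKM in control libraries, with overlapping groups, and ZNF841 gave 0.392, 0.716 and 0.87 FPKM in 5aza libraries, against 0.0988, 0.219 and 0.251 FPKM in control libraries, without overlap. ZNF880, given above, was the other. Of the transcript words of ZNF20, 54.5% occur in another gene, and ZNF625-ZNF20, annotated on the same strand, covers 53.3% of its exon bases.

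Among the partners of KRAB zinc finger proteins, TRIM28 fell and SETDB1 did not pass the test. Of a list of 27 genes of the TRIM28 and H3 lysine methylation pathway, 25 were tested, of which 1 rose, 7 fell and 17 did not pass, with a median log2 fold change of -0.06. The 7 falls were 28% of the 25 tested, beside a background of 13.1% of all genes tested and of 26.4% of the genes at 20 FPKM or more. The list is of high level, with 13 of its 25 tested genes and 6 of its 7 falls at 20 FPKM or more, and the part of level in this count was not tested. TRIM28, the co-repressor itself, gave 379.6, 374 and 366 FPKM in 5aza libraries, against 447, 445 and 412 FPKM in control libraries. The groups did not overlap, with means of 373 ± 7.11 FPKM in 5aza cells and 434 ± 19.6 FPKM in control cells (SD, n = 3 each) and a log2 fold change of -0.22 ± 0.04 (SE) and an adjusted p of 0.00681. SETDB1 gave 10.99, 11.5 and 13.6 FPKM in 5aza libraries, against 12.9, 11.1 and 11.5 FPKM in control libraries, with overlapping groups and a log2 fold change of 0.02 ± 0.09 (SE) and an adjusted p of 0.892. The histone methyltransferase EHMT2 fell, with means of 27.9 ± 0.709 FPKM in 5aza cells and 32.6 ± 0.541 FPKM in control cells (SD, n = 3 each) and an adjusted p of 0.00494. SUV39H2, another such enzyme, fell as well, with means of 16.7 ± 0.264 FPKM in 5aza cells and 20.2 ± 0.792 FPKM in control cells (SD, n = 3 each) and an adjusted p of 0.00565. TRIM28, EHMT2 and SUV39H2 kept their calls in all 16 alternatives. The deacetylase HDAC2 averaged 161 ± 4.82 FPKM in 5aza cells and 180.0 ± 1.84 FPKM in control cells (SD, n = 3 each), with an adjusted p of 0.0088, and its call was lost with the same summed FPKM, quantile and cyclic loess normalization. MORC2, a silencing factor that works with the HUSH complex, rose, with 13.5 ± 0.661 FPKM in 5aza cells and 10.8 ± 1.36 FPKM in control cells (SD, n = 3 each), with an adjusted p of 0.0391.

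The heterochromatin proteins CBX1 and CBX3 also fell, each by less than 0.2 on the log2 scale. Their adjusted p was 0.0229 and 0.0459, with ranges up to 0.152 and 0.839. The call of CBX1 was lost without 5aza replicate 2 or 3 or control replicate 1, and that of CBX3 without 5aza replicate 2 or 3 or any control replicate. Both calls were also lost with the same summed FPKM, with quantile and cyclic loess normalization and with no variance trend, and that of CBX3 with no filter. CBX1 had a log2 fold change of -0.16 as reported, and of -0.08, -0.09 and -0.07 in these 3 scalings. CBX3 turned above 0 under quantile normalization. The call of MORC2 was lost without any single 5aza library or without control replicate 1 or 2, and with no filter or no variance trend. DNMT1, the maintenance methyltransferase that azanucleosides trap, gave 46.5, 49.1 and 47.3 FPKM in 5aza libraries, against 75.4, 61.5 and 55.1 FPKM in control libraries. For DNMT1 the log2 fold change was -0.41 ± 0.10 (SE) and the adjusted p was 0.0236, with a range of 0.00791 to 0.0692, and the call was lost without any single 5aza library or without control replicate 2, and with no variance trend.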

How the data were processed

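RNA was sequenced from 3 libraries of 5aza-treated and 3 of control HCT116 cells. The values are FPKM per gene in 1 table deposited by the authors, per the file headers. Columns were matched to samples through the sample descriptions. Tools named, per the submitters' processing notes, are DESeq2 1.10.1, HTSeq 0.6.0 and STAR 2.5.1b, beside the genome builds Rnor_6.0 and GRCh38, and none has a stated role. Which program gave FPKM, and whether strand was used, the labels do not say. FPKM divides by the library's mapped fragments, so a shift of a few abundant genes moves all others.

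For 11 identifiers found on more than 1 row, only the row of higher mean FPKM was used. The test, run on every gene that reached 0.5 FPKM in 3 or more of the 6 libraries, was limma 3.58.1 (R 4.3.3) on log2(FPKM + 0.1), with no further scaling, lmFit and eBayes with a variance trend, two-sided, and Benjamini-Hochberg adjustment over all 12360 genes. Fold changes are 5aza over control on this scale, which understates changes of low genes. All adjusted p-values are limma's. Whole reads could not be recovered: at the best setting only 30.2% to 37.1% of the low values were whole to within 0.1 over 1292 genes with a single transcript, so no count test was run and no interval or floor for counts is given.

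Positions are from GENCODE release 29 (GRCh38). The arms were separated at the widest gap between ZNF genes, 6.19 Mb. Zinc finger and KRAB patterns were searched in GENCODE coding sequences, and shared words of 31 bases in its transcripts. Promoters are RefSeq's, GRCh38.p14.

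The genes named are the 12 largest rises and falls that passed without overlap, the 5 most abundant members, the largest rise and fall of each cluster with at least 5 members, members that passed the filter through 1 group, the 3 on each side of the filter's limit, ZNF274, the pathway list and DNMT1. Of the pathway list, 1 gene is counted but not reported here by name. Others are said to be chosen after their values were seen. The members and lists were chosen with earlier results of these data known. Alternatives were other pseudocounts, filters, scalings, no variance trend, the replicate block and leaving out each library.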

Additional observations from a re-analysis of the deposited data

How the results depend on the processing

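The median log2 fold change of the members was 0.14 in the fit as reported and stayed above 0 in every alternative. It was 0.10 with a pseudocount of 1, 0.17 with no filter on low values, 0.21 with the same summed FPKM, 0.0329 with quantile normalization and 0.0568 with cyclic loess normalization, and 0.124 to 0.139 with 1 library left out. The causes were not tested.

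Members that rose numbered 13 as reported, 29 with no filter (which adds the 55 genes outside it), 21 with the same summed FPKM, 8 with quantile normalization, and 5 to 12 with 1 library left out. Members that fell numbered 3 as reported, 1 with the same summed FPKM and 1 to 2 with 1 library left out. On 19p the 2 rises became 5 with no filter, 4 with the same summed FPKM, 0 with quantile or cyclic loess normalization and 0 to 2 with 1 library left out. The 1 fall on 19p became 0 with a pseudocount of 0.01, no filter, a mean of at least 0.5 FPKM, the same summed FPKM, quantile or cyclic loess normalization, no variance trend or the replicate block, and 0 to 1 with 1 library left out. On 19q the 11 rises became 24 with no filter, 17 with the same summed FPKM and 5 to 11 with 1 library left out, and the 2 falls became 1 with the same summed FPKM and 1 to 2 with 1 library left out. Over the whole table, 1310 genes rose and 1619 fell. These became 2244 and 779 with the same summed FPKM, 1041 fell with no variance trend, and 940 to 1521 fell with 1 library left out.

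Leaving out the 19 members with over 20% of their words in another gene, or ZNF132, which passed the filter through 1 group, gave medians of 0.13 and 0.13. Both alternatives were chosen after seeing the data. Of the genes outside the filter, 20 rose, against 10 with quantile normalization and 12 to 21 with 1 library left out, all also added after seeing the data. Signs turned for ZNF428 (0.0596 with the same summed FPKM, 0.0181 with quantile and 0.0232 with cyclic loess normalization), for ZNF441 (-0.30 and -0.0495 with quantile and cyclic loess normalization), for ZNF132 (-0.14) and CBX3 (0.0209) with quantile normalization, and for ZNF20 in the fit with no filter (-0.30 with quantile normalization, and -0.128 to 0.272 with 1 library left out, below 0 without 5aza replicate 2 at -0.128 and without control replicate 3 at -0.113). None of these reversed values passed the test.

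The replicate numbers were not treated as pairs. Libraries of the same number had deviations that correlated at 0.048, 0.077 and 0.068 over 12360 genes, and every library correlated best with its own number, a hint from the data and not from the design. With the replicate block, 11 members rose and 3 fell, and 1259 and 1673 genes did over the whole table.

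The limits are 3 libraries per group, an unknown depth, and values of 0 that can be failed estimates. How reads of near-identical copies and of overlapping genes were assigned is not stated in the labels. Methylation was not analysed here.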
